A study of Mus musculus with 6 samples.

Results

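The mitochondrial ribosomal protein genes were taken as every row of the deposited gene table whose gene name begins with Mrpl or Mrps followed by a digit. This gave 75 of 41386 genes, of which 47 carried a large-subunit name (Mrpl) and 28 a small-subunit name (Mrps). They lay on 17 chromosomes. Of the 75 genes, 74 had 10 or more reads over the 6 libraries, and all 74 also passed the low-count filter of the test. Their total counts ran from 1515 to 16767, and the lowest count of any of them in a library was 157. The remaining gene, Mrpl53, had 0 reads in every library.

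The counts came from bulk RNA-seq of mouse hippocampus, with 3 libraries in each of 2 groups. In the ischemia/reperfusion (I/R) group the left middle cerebral artery was blocked with a filament for 1.5 h and blood flow was then restored for 24 h. The sham group had the same surgery without the filament. All mice were males, 56 days old, labelled C57BL/6, and per the study's methods each replicate held ipsilateral hippocampi of 3 animals, so replicates differ as pools of animals do. The libraries held 37493042 to 44788547 counts. In sham 0.2182% to 0.2288% of the counts fell on the mitochondrial ribosomal protein genes, and after I/R 0.2851% to 0.2955%. These are shares of unscaled counts. With the scaling used for the tests, the summed level in I/R was 1.098 times that in sham. The labelled tissue carried its own markers: the summed level of 7 dentate granule cell genes was 569.3 to 638 CPM in the sham libraries, CPM being counts scaled to a common library total. In the I/R libraries that sum was 225.2 to 328.1 CPM, and all 7 genes were called lower. Neuron markers were lower after I/R. All 9 measured of the 10 listed were called lower, none was at 0, and their summed level was 2133 to 4128 CPM in I/R and 6953 to 7252 CPM in sham. Of the 10 choroid plexus markers none was at 0 and 1 was called lower, and their sum was 36.29 CPM in I/R replicate 3 and 39.11 CPM in sham replicate 1, against 1619 to 4492 CPM in the other 4 libraries. In such bulk libraries fewer cells of a type and less RNA per cell cannot be told apart.

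Mitochondria keep a small genome of their own and translate its messages, which encode core subunits of the respiratory chain and of ATP synthase, on a ribosome that differs from the cytosolic ribosome. The ribosomal RNAs of this mitoribosome are made inside the organelle, whereas every one of its proteins is encoded in the nucleus, made on cytosolic ribosomes and imported. Some of the proteins have a counterpart in bacterial ribosomes, and others were added during the evolution of mitochondria. Neurons depend heavily on oxidative phosphorylation, and the hippocampus is among the brain regions most easily damaged by loss of blood flow. The mitochondrial ribosomal RNAs were not analysed here.

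The nuclear genes of this set have been linked to a few transcription factors of mitochondrial biogenesis, among them NRF1, the ETS-family factor GABP and YY1. Promoter windows of 300 bases (250 before to 50 after the annotated start; RefSeq, GRCm38.p6) were available for 66 of the 75 genes. The ETS core CCGGAAG, on either strand, stood in 24 of the 66 (36.4%) against 9.93% of all 27025 genes with a window and 16.9% of the tested genes with a window. The YY1 core AAGATGGCG stood in 8 (12.1%, against 1.64% of all genes and 3.01% of the tested genes), the palindromic NRF1 core (the capitals of Mrpl32 and Mrpl9 below) in 3 (4.55%, against 1.07% and 2.03%) and the E-box CACGTG, the core bound by MYC, in 5 (7.58%, against 8.09% and 11%). The ATF4 core TGATGCAA stood in 0 of the 66, against 1.03% of all genes and 0.699% of the tested genes. The ETS and YY1 letters can overlap at a shared AAG, and the others were searched separately. At least 1 of the NRF1, ETS and YY1 cores was found in 33 of the 66 genes (50%), against 12.1% of all genes and 20.7% of the tested genes. These are matches of letters and not measured binding sites. The 6 stretches of 120 bases just before the start are shown because they belong to genes described below and show ETS, NRF1 and E-box matches and a stretch without any, with the motif in capitals. No YY1 match is shown.

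In the first pair (positions on GRCm38.p6 throughout) the capitals mark the ETS core, in Mrpl52 (chr14:54426789-54426908, plus strand, as the reverse complement) and in Mrps22 (chr9:98601680-98601799, minus strand).
Mrpl52: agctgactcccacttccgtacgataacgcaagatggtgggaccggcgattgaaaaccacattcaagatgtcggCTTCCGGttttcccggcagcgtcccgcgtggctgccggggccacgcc
Mrps22: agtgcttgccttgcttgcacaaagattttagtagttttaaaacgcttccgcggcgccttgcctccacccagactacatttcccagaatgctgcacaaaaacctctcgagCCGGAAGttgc
In the second pair they mark the NRF1 core, in Mrpl32 (chr13:14613038-14613157, minus strand) and in Mrpl9 (chr3:94443216-94443335, plus strand).
Mrpl32: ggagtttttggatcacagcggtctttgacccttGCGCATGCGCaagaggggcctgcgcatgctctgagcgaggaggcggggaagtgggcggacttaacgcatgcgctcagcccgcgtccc
Mrpl9: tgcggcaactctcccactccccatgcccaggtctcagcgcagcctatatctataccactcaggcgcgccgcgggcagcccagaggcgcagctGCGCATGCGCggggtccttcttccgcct
In the last pair they mark the E-box of Mrpl20 (chr4:155802758-155802877, plus strand), while the stretch of Mrps6 (chr16:92058216-92058335, plus strand) held none of the 5 motifs.
Mrpl20: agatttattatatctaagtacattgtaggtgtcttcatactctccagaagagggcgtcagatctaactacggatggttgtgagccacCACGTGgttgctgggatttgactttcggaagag
Mrps6: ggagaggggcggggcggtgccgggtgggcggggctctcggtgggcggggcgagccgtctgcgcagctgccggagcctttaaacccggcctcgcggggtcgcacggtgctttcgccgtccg

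In sham hippocampus the 74 genes with reads stood, as a set, above the middle of all genes tested. Per gene length, their mean sham level ran from 5.274 to 108.2 FPKM (fragments scaled to gene length and library size, as deposited), a 20.5-fold range, with a median of 24.9 FPKM against 7.013 FPKM for all genes tested. The highest levels were those of Mrps21 (108 ± 5.05 FPKM, SD, n = 3), the mitochondrial counterpart of a bacterial small-subunit protein, Mrpl41 (101 ± 4.66 FPKM), Mrps33 (97.9 ± 6.84 FPKM) and Mrpl20 (76.7 ± 4.56 FPKM). The lowest were those of Mrpl1 (5.27 ± 0.620 FPKM) and Mrps18b (6.03 ± 1.29 FPKM). FPKM computed from the gene length listed in the table were 0.267 to 1.0 of those deposited over these genes, and a median 0.7838 of them over all genes. The authors' FPKM thus rest on a shorter length for most genes, and the order between genes depends on that length. The spread between replicates was small. The median coefficient of variation of a member was 6.70% in sham and 7.26% in I/R, against 8.82% and 16.6% over all genes tested. This comparison was not matched for level: the median sham level was 31.05 CPM for the set and 14.66 CPM for all genes tested.

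After I/R, more of these genes were higher than lower, by small amounts. A gene was called differentially expressed (DEG) when its adjusted p from edgeR's quasi-likelihood test was under 0.05 and its fold change over 1.2 in either direction. Of the 74 tested genes 22 rose and 2 fell, and the other 50 were not called. Over all 18569 genes tested, 41.8% were DEGs: 21.8% rose and 19.9% fell. The 74 genes thus held a share of rises above the background (29.7%) and a share of falls under it (2.7%). Falls were less common among shorter genes over all genes, and the shares by gene length are given below. Their median log2 fold change was 0.11, against 0.03 for all genes, and ranged from -0.38 to 1.68. The change was also narrow: only Mrps6 moved by more than 1 on the log2 scale (1.35% of the set), where 18.1% of all genes did. In 69 of the 74 the 95% interval of the log2 fold change lay wholly within 1 of 0. The groups did not overlap in 32 genes with I/R on top and in 8 with sham on top. Over all genes 57.4% showed no overlap, 29.3% with I/R on top and 28.1% with sham on top.

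**Figure D1:**
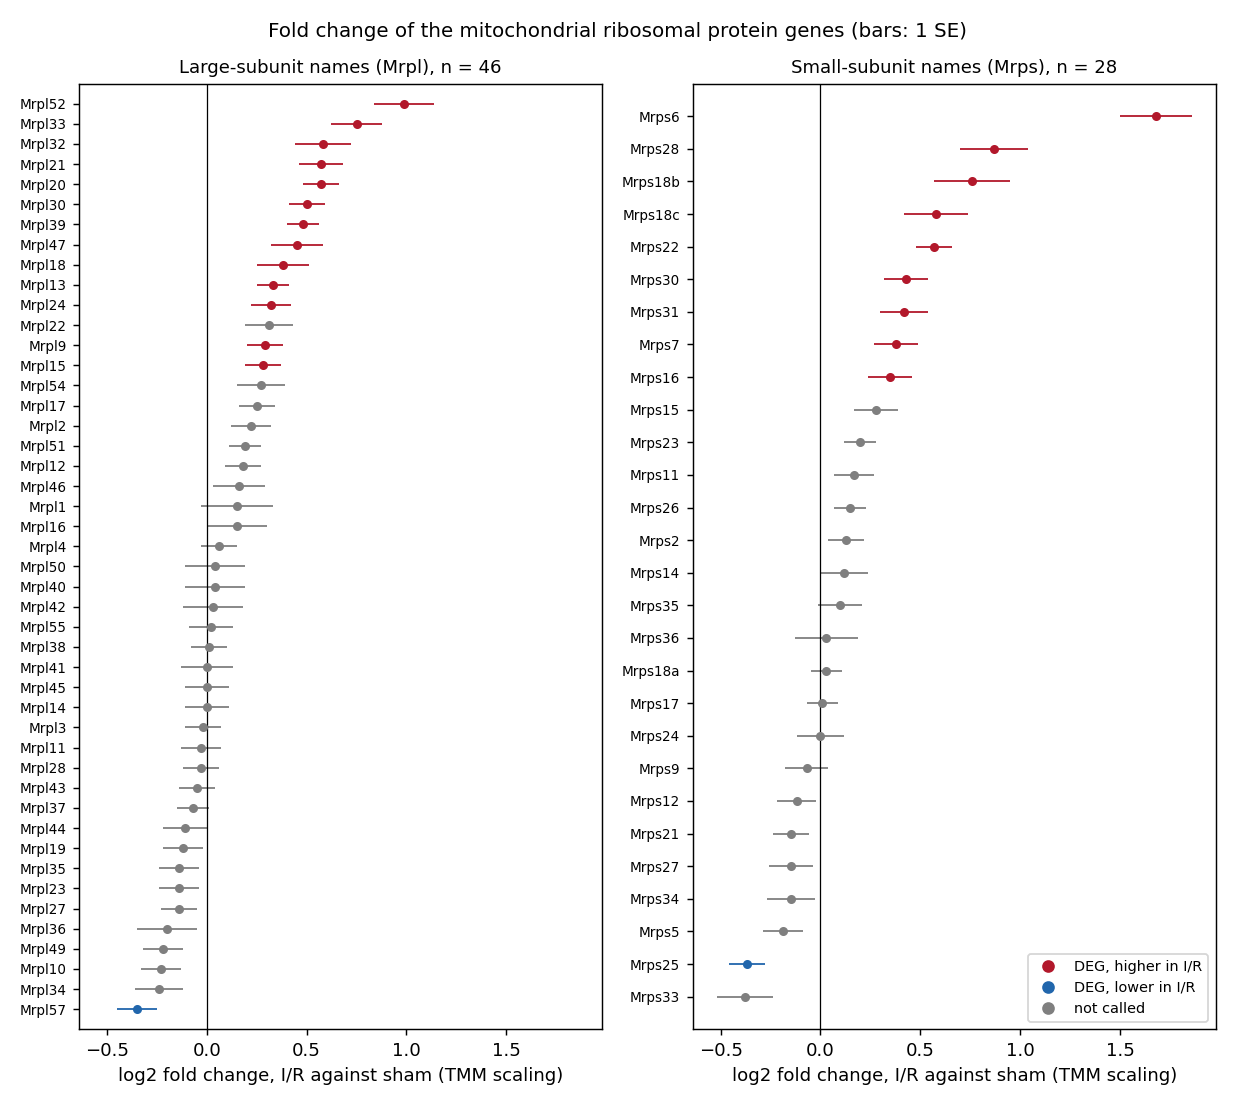
Log2 fold change (x axis, I/R against sham, TMM scaling) of each tested gene with a large-subunit name (left) and a small-subunit name (right), each row 1 gene and bars 1 standard error. The 22 red points are DEGs higher in I/R, the 2 blue points DEGs lower in I/R, and the remaining 50 gray points lie between -0.38 and 0.31.

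The count of rises moved when single libraries were left out, and so did that of all genes. It was 24 without I/R replicate 1 (32.4% of the set, against 21.4% of all genes), 13 without I/R replicate 2 (17.6% against 17.5%) and 15 without I/R replicate 3 (20.3% against 19.8%). It was 10, 12 and 11 without sham replicate 1, 2 and 3 (13.5%, 16.2% and 14.9%, against 15.6%, 15.2% and 15.2% of all genes). The share of rises was therefore near the background in 5 of these 6 fits. The count of falls was 3, 2 and 4 without I/R replicate 1, 2 and 3, and 1, 0 and 0 without the sham replicates. That is 5.41% of the set at most, where 12.7% to 21.2% of all genes fell. Without I/R replicate 3 and sham replicate 1 together, the 2 libraries with little choroid plexus RNA, 6 genes rose (8.11%, against 14.9% of all genes) and 0 fell (against 13.1%), at 2 libraries a group. In 6 genes (Mrps6, Mrpl52, Mrps28, Mrpl33, Mrpl20 and Mrps22) the call held in all 19 alternative fits.

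Of the large-subunit names, 13 of 46 rose (28.3%, against 21.8% of all genes) and 1 fell (2.17%, against 19.9%). Their median log2 fold change was 0.05. Mrpl52, which encodes a mitochondria-specific protein of the large subunit (chromosome 14, 47407327 to 47410155, BALB/cJ assembly, as for all gene positions here), had 72.7, 49.8 and 53.7 CPM in the I/R libraries and 28.1, 30.3 and 30.5 CPM in sham. Its lowest I/R library stood well above its highest sham library (log2 fold change 0.99, SE 0.15, adjusted p = 0.001866), and it overlapped no other gene. Mrpl33 (chromosome 5, 29201065 to 29269375), a small protein with a bacterial counterpart, had 25.3, 22.5 and 22.1 CPM in I/R and 15.7, 13.8 and 11.9 CPM in sham (log2 fold change 0.75, SE 0.13, adjusted p = 0.003486). Mrpl20 (chromosome 4, 153894186 to 153901524), whose bacterial counterpart is needed for assembly of the large subunit, was among the most abundant members per length and still rose. It had 78.0, 68.3 and 77.5 CPM in I/R against 47.1, 53.7 and 49.6 CPM in sham (log2 fold change 0.57, SE 0.09, adjusted p = 0.002577). Mrpl32, which is matured by a protease inside the mitochondrion before it joins the ribosome, had 19.5, 25.03 and 24.3 CPM in I/R and 15.6, 13.7 and 16.6 CPM in sham. The groups did not overlap (log2 fold change 0.58, SE 0.14, adjusted p = 0.01058), but the call was lost without sham replicate 2 (adjusted p = 0.05184).

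The other large-subunit genes that rose were Mrpl21, Mrpl30, Mrpl39, Mrpl47, Mrpl18, Mrpl13, Mrpl24, Mrpl9 and Mrpl15. Their log2 fold changes ran from 0.57 in Mrpl21 down to 0.28 in Mrpl15. The call held in 18 of 19 alternatives for Mrpl21, Mrpl30 and Mrpl39, in 15 for Mrpl13, and in 7 to 12 for Mrpl47, Mrpl9, Mrpl24, Mrpl15 and Mrpl18. Mrpl57, a small mitochondria-specific protein of the large subunit (chromosome 14, 50940366 to 50942872), was the single large-subunit gene that fell. It had 33.3, 41.0 and 38.7 CPM in I/R and 46.4, 49.8 and 48.2 CPM in sham (log2 fold change -0.35, SE 0.10, adjusted p = 0.02438). Each of its I/R libraries lay below every sham library, yet the call was lost without sham replicate 1, 2 or 3 (adjusted p = 0.05728, 0.08571 and 0.07636). Mrpl41 and Mrpl1, near the top and at the bottom of the abundance range, were not called. Mrpl41 had 53.2, 64.1 and 76.6 CPM in I/R within which lay its sham values of 65.9, 67.3 and 61.1 CPM.

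Of the small-subunit names, 9 of 28 rose (32.1%, against 21.8% of all genes) and 1 fell (3.57%, against 19.9%). Their median log2 fold change was 0.12. Mrps6 (chromosome 16, 89291263 to 89345154), the counterpart of bacterial small-subunit protein bS6, showed the highest fold change of the set. It had 67.0, 49.9 and 47.4 CPM in I/R and 14.0, 17.3 and 20.1 CPM in sham (log2 fold change 1.68, SE 0.18, adjusted p = 0.000664). The group means were 54.7 and 17.1 CPM, a 3.20-fold difference. Mrps28 (chromosome 3, 5617291 to 5733668) had 19.6, 25.1 and 18.1 CPM in I/R and 10.6, 13.5 and 10.4 CPM in sham (log2 fold change 0.87, SE 0.17, adjusted p = 0.004970). Mrps22 (chromosome 9, 96067932 to 96080871), a mitochondria-specific protein of the small subunit, had 31.1, 34.3 and 34.3 CPM in I/R and a very tight 22.1, 22.3 and 22.7 CPM in sham (log2 fold change 0.57, SE 0.09, adjusted p = 0.002324).

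The 3 genes of the Mrps18 family, which are related in sequence, differed in their calls. Mrps18c is counted here as the counterpart of the bacterial protein, and Mrps18a and Mrps18b as mitochondria-specific. Mrps18b, the least abundant small-subunit member by FPKM, had 8.10, 7.28 and 8.25 CPM in I/R and 4.02, 4.16 and 5.78 CPM in sham. It rose (log2 fold change 0.76, SE 0.19, adjusted p = 0.01407), but not without sham replicate 1 or 2 (adjusted p = 0.05766 and 0.06262). Mrps18c had 13.8, 15.1 and 17.4 CPM in I/R and 10.7, 11.7 and 8.60 CPM in sham (log2 fold change 0.58, SE 0.16, adjusted p = 0.02036). Leaving out I/R replicate 2, I/R replicate 3, sham replicate 1 or sham replicate 3 ended its call (adjusted p 0.05368 to 0.07928). Mrps18a, whose product sits in the large subunit despite its name, had 36.7, 38.0 and 38.6 CPM in I/R and 37.2, 37.5 and 35.9 CPM in sham and was not called (log2 fold change 0.03, SE 0.08, adjusted p = 0.7577). The difference between the 3 genes was not tested.

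Mrps30, whose product also belongs to the large subunit, rose from 11.9, 11.5 and 11.5 CPM in sham to 14.4, 15.8 and 16.7 CPM in I/R (log2 fold change 0.43, SE 0.11, adjusted p = 0.01852). When I/R replicate 2, I/R replicate 3 or any sham library was left out, its adjusted p was 0.06177 to 0.0741. Mrps36, which is now known as a subunit of the oxoglutarate dehydrogenase complex rather than of the ribosome, was not called (log2 fold change 0.03, SE 0.16, adjusted p = 0.9107). The remaining small-subunit genes that rose were Mrps31, Mrps7 and Mrps16, by 0.42, 0.38 and 0.35 on the log2 scale, each called in 13 of the 19 alternatives.

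Mrps25 (chromosome 6, 90194313 to 90209548), a mitochondria-specific protein of the small subunit, fell. It had 28.5, 25.2 and 26.9 CPM in I/R and 33.4, 35.2 and 35.3 CPM in sham (log2 fold change -0.37, SE 0.09, adjusted p = 0.01404). The call was lost without sham replicate 2 or 3 (adjusted p = 0.05254 and 0.05811). Mrps33, 1 of the 4 most abundant members per length, had the lowest fold change of the set and was not called, with 44.4, 57.3 and 65.9 CPM in I/R and 75.6, 76.2 and 66.8 CPM in sham (log2 fold change -0.38, SE 0.14, adjusted p = 0.06398). Its I/R libraries spread over a wide range, and the highest of them came close to the lowest sham library. Without I/R replicate 3 it was called lower (adjusted p = 0.01628). Mrps21, the most abundant member per length, had 41.4, 40.8 and 44.7 CPM in I/R and 47.3, 49.3 and 44.5 CPM in sham, and the groups overlapped (log2 fold change -0.15, SE 0.09, adjusted p = 0.1905).

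The 3 members whose fold change was closest to 0 were Mrpl45, Mrpl14 and Mrps24. Mrpl45 had 28.4, 35.9 and 34.1 CPM in I/R and 33.6, 32.3 and 32.4 CPM in sham. Mrpl14 had 16.7, 17.0 and 17.0 CPM in I/R and 15.1, 18.0 and 17.8 CPM in sham. Mrps24 had 24.6, 24.6 and 25.4 CPM in I/R and 22.6, 29.1 and 22.9 CPM in sham. In each the groups overlapped, and the widest 95% interval of the 3 log2 fold changes ran from -0.28 to 0.28, so changes within that range were not detectable here.

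**Figure D2:**
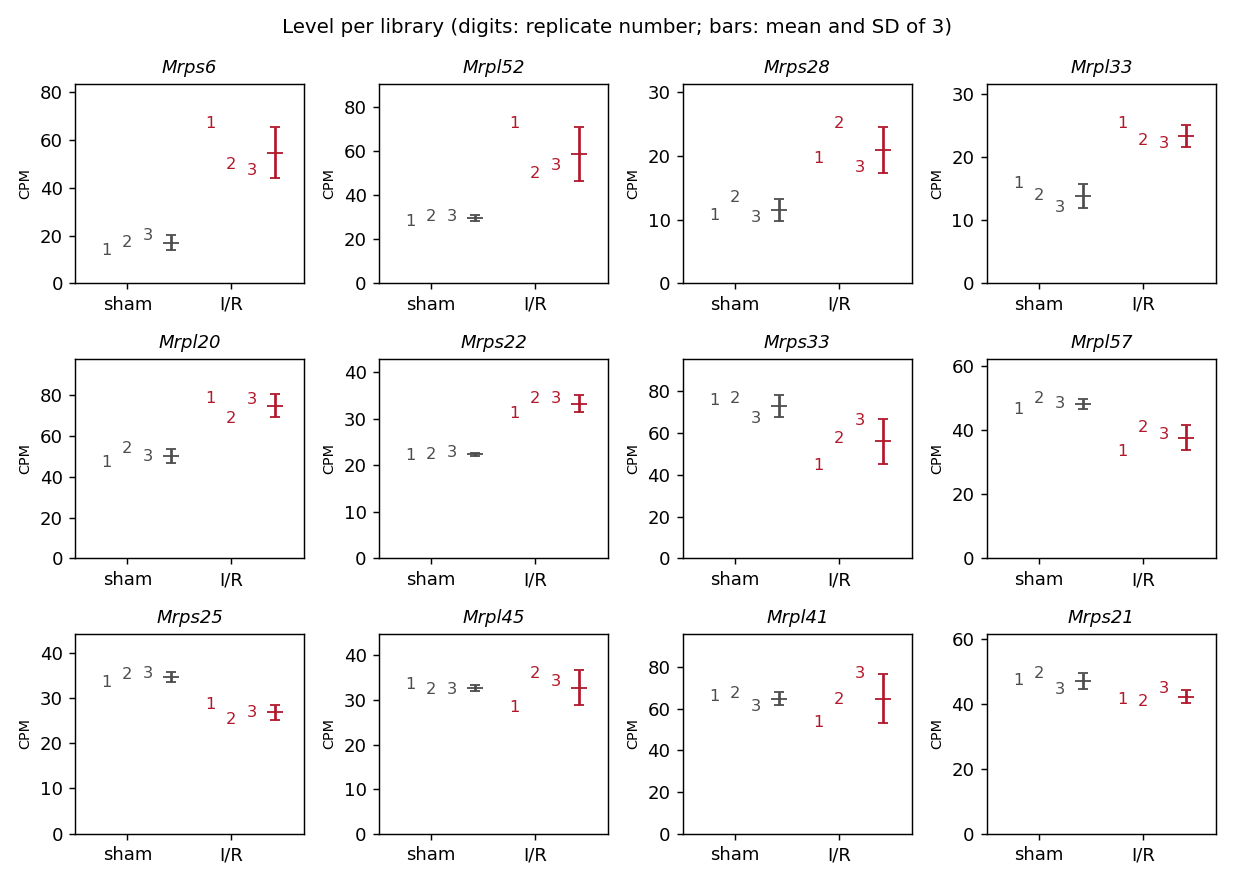
CPM (y axis, each panel from 0) of 12 genes in the sham and I/R libraries, each digit a library with its replicate number, and each bar the mean and SD of the 3. The top 6 panels show Mrps6, Mrpl52, Mrps28, Mrpl33, Mrpl20 and Mrps22 with every I/R library above every sham library; Mrps33, Mrpl57 and Mrps25 lie lower in I/R, and Mrpl45 and Mrpl41 overlap.

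Among all genes tested 21.8% rose and 19.9% fell. Sorted by origin, 16 of the 45 tested proteins with a bacterial counterpart rose (35.6%) and 0 fell (median log2 fold change 0.15). Of the 28 mitochondria-specific proteins 6 rose (21.4%, near the share of all genes) and 2 fell (7.14%), with a median of 0.04. The difference between these classes was not tested. Both subunits held genes of either kind that rose: 11 of 30 and 3 of 18 in the large subunit and 5 of 15 and 3 of 10 in the small subunit, placing each protein where its product sits.

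Several members share their locus with another gene, and the sources used here do not say if strand was used in counting. Of the 22 genes that rose, 16 overlapped another annotated gene and 6 did not. Among the 37 tested genes with no overlap, 6 rose (16.2%) and 1 fell (2.7%), with a median log2 fold change of 0.03. Among the 37 with an overlap 16 rose (43.2%) and 1 fell (2.7%), with a median of 0.18. Of all genes tested 21.8% rose and 19.9% fell, with a median of 0.03. Between these classes only the genes with an overlap thus held a share of rises above the background, and the difference was not tested. The overlapping genes held from few reads (5 over the 6 libraries for Mrps28) to many (15035 for Mrps6). Sorted instead by shared sequence, 5 of 18 with over 10% of their 50-base stretches in another gene rose (27.8%, median -0.02). Of the 56 with 10% or less, 17 rose (30.4%, median 0.15). This difference was not tested either. In 5 of the 22 that rose a named overlapping gene had itself risen: Mrps6, Mrpl47, Mrpl18, Mrpl13 and Mrpl24. In 1, Mrps7, the overlapping gene Gga3 was called lower. Unnamed overlapping genes were left out of this count. The overlaps of Mrpl47, Mrpl18, Mrpl13 and Mrpl24 are with genes on the opposite strand. Mrps6 lies on the same strand as Slc5a3, the sodium/myo-inositol cotransporter gene, which rose from 32.3 to 89.6 CPM (log2 fold change 1.47, SE 0.12, adjusted p = 0.000291), and Gm16310, which also rose. Mrpl47 overlaps Actl6a (log2 fold change 1.08, SE 0.12, adjusted p = 0.000789), Mrpl18 overlaps Tcp1, a subunit of the cytosolic chaperonin (0.66, SE 0.09, adjusted p = 0.001289), Mrpl13 overlaps Mtbp (1.49, SE 0.32, adjusted p = 0.007671) and Mrpl24 overlaps Rrnad1 (0.40, SE 0.12, adjusted p = 0.02541). Of the genes that fell, Mrps25 lies opposite Nr2c2, which fell by 0.73 on the log2 scale (SE 0.09, adjusted p = 0.000961), and 68.2% of the 50-base stretches of Mrps25 transcripts also occur in Nr2c2 transcripts on 1 or the other strand. The part of the neighbours' reads in these counts was not tested. Leaving out the 6 tested members that overlap a named gene called higher left 17 rises and 2 falls among 68 genes (median 0.05).

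Mrpl53 (chromosome 6, 80913080 to 80913979) was at 0 reads in all 6 libraries, which allows at most 0.0659 to 0.0871 CPM by the limit of 3 counts in a library. It overlaps Ccdc142os and Gm42688, and 82% of its stretches occur in Gm42688 as well. Whether its reads were assigned elsewhere was not tested.

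Summed over the set, the level was 2567, 2675 and 2738 CPM in I/R and 2370, 2520 and 2376 CPM in sham (2660 ± 86.6 and 2422 ± 84.8 CPM, SD, n = 3), a ratio of 1.098. The I/R libraries lay above the sham libraries, with 2567 CPM as their lowest value and 2520 CPM as the highest sham value. Without Mrps6 the ratio was 1.083, and the groups overlapped. I/R replicate 1 was the lowest of its group for 44 of the 74 genes, against 41.4% of all genes. Its median log2 ratio to the sham mean was 0.00, where I/R replicates 2 and 3 stood at 0.15 and 0.16. I/R replicate 1 was also the library with the lowest sum of neuron markers, 2133 CPM. The sum of 7 monocyte and macrophage markers was 432.2 CPM there, 227.6 and 205.9 CPM in I/R replicates 2 and 3 and 14.93 to 17.43 CPM in sham; 6 of the 7 were called higher and none was at 0. The part of these cells in the changes was not tested.

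The number of calls depended on how libraries were scaled. TMM scaling sets aside a general shift between groups. With library size alone, the median of all genes moved from 0.03 to 0.28 on the log2 scale. The set's median then moved from 0.11 to 0.36, a shift of similar size. Under that scaling 40 of the 74 genes rose and 0 fell, against 34.1% and 10.9% of all genes. After a correction for gene length, 19 rose (25.7%, against 21.9% of all genes) and 7 fell (9.46%, against 19.5%), with a median of 0.06. The 7 were Mrpl27, Mrpl34, Mrpl49, Mrpl57, Mrps21, Mrps25 and Mrps33. Shorter genes tended to stand higher in I/R: the median log2 fold change of all genes was 0.21 up to a length of 1000 bases, 0.09 from there to 2500 bases and -0.04 above. For the mitochondrial ribosomal protein genes the medians in these classes were 0.03, 0.15 and 0.12. Under TMM scaling 6.24%, 15% and 25.3% of all genes in these classes fell. Of the mitochondrial ribosomal protein genes 0%, 3.03% and 5% did.

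**Figure D3:**
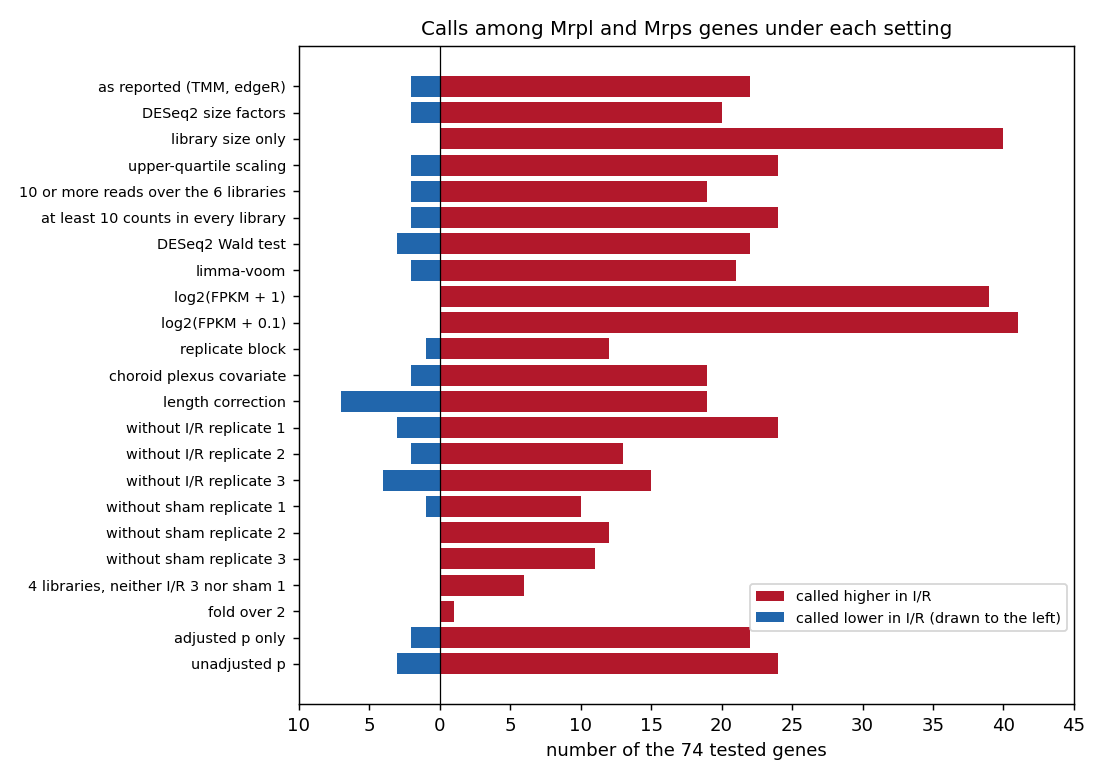
Number of the 74 tested genes (x axis) called higher in I/R (red, to the right) and lower (blue, to the left) as reported and under each alternative setting (rows). The red bars run from 1 gene at a fold over 2 to 41 genes on the log2(FPKM + 0.1) scale, and the blue bars from 0 to 7.

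Other proteins of the mitoribosome and the factors that build it were measured as well. For comparison, 21.8% of all genes rose and 19.9% fell. Of 6 mitoribosome proteins with other names, 3 rose: Ptcd3, a small-subunit protein (62.9 ± 2.31 CPM in I/R and 43.8 ± 1.16 in sham, log2 fold change 0.52, SE 0.08, adjusted p = 0.001925), Chchd1 (0.50, SE 0.11, adjusted p = 0.007991) and Aurkaip1 (0.33, SE 0.10, adjusted p = 0.03255). Dap3, a GTP-binding protein of the small subunit, was at -0.19 (adjusted p = 0.1930), Gadd45gip1 at 0.01 and Ict1, a peptidyl-tRNA hydrolase within the large subunit, at -0.08, and none of these was called. Of 32 tested genes of mitoribosome assembly and RNA modification, 7 rose (21.9%) and 1 fell (3.12%), with a median of 0.13. The share of rises was thus that of all genes. The largest rises among them were Wbscr16 (0.80, SE 0.20, adjusted p = 0.01413) and Slirp, an RNA-binding partner of Lrpprc that stabilizes mitochondrial messages (0.60, SE 0.11, adjusted p = 0.004558). Rpusd3, a pseudouridine synthase, fell from 2.99 to 1.46 CPM (log2 fold change -1.04, SE 0.28, adjusted p = 0.01853). The call held in all 19 alternatives for Ptcd3 and Slirp, in 18 for Chchd1, in 17 for Wbscr16, in 16 for Rpusd3 and in 12 for Aurkaip1.

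Mitochondrial translation factors and aminoacyl-tRNA synthetases were called in few cases under TMM scaling, where 21.8% of all genes rose and 19.9% fell. Of 15 tested mitochondrial translation factors, 0 rose and 2 fell (median -0.02): Coa3 (log2 fold change -0.56, SE 0.10, adjusted p = 0.004366) and Taco1 (-0.44, SE 0.14, adjusted p = 0.03210), both of which act in the synthesis of a cytochrome c oxidase subunit. Of 22 mitochondrial aminoacyl-tRNA synthetase and amidotransferase genes, 2 rose (9.09%) and 3 fell (13.6%), with a median of -0.06. The rises were Gars (0.62, SE 0.09, adjusted p = 0.001465) and Kars, whose products serve the cytosol as well. Pars2 (-0.69) and Gatb (-0.64), whose products serve mitochondria, fell, as did Aars2 (-0.37). Of 13 genes of mitochondrial transcription and DNA maintenance 4 rose and 0 fell (median 0.22), among them Ssbp1, the single-strand DNA-binding protein (0.65, SE 0.14, adjusted p = 0.006977), and Tfam, the packaging and transcription factor of mitochondrial DNA (0.29, SE 0.10, adjusted p = 0.04759). The call held in all 19 alternatives for Coa3, Gars, Gatb and Ssbp1, in 13 for Pars2, in 10 for Taco1 and in 7 for Tfam. With library size alone 6 of the 15 translation factors rose and 1 fell, and 7 of the 22 synthetase and amidotransferase genes rose and 1 fell. Under that scaling 34.1% of all genes rose and 10.9% fell.

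The products of mitochondrial translation meet nuclear-encoded respiratory chain subunits, and none of these rose under TMM scaling. The shares over all genes were 21.8% for rises and 19.9% for falls. Of 73 tested nuclear OXPHOS subunit genes 0 rose and 7 fell (median -0.09), with Sdha, the flavoprotein of complex II, the largest fall (366 ± 36.6 CPM in I/R and 590 ± 23.6 in sham, log2 fold change -0.69, SE 0.12, adjusted p = 0.003173). With library size alone 17 of them rose and 1 fell, against 34.1% and 10.9% of all genes. After the length correction 17 fell, against 19.5% of all genes. Mitochondrial chaperones and proteases were also measured: 9 of 19 rose and 2 fell (median 0.20), led by Hspe1 and Hspd1, the folding chamber of the matrix, at 1.48 (SE 0.10, adjusted p = 0.000215) and 1.17 (SE 0.13, adjusted p = 0.000712), and by Atf5, a transcription factor of the mitochondrial stress response, which went from 24.4 to 55.9 CPM (adjusted p = 0.005487). Of 11 outer membrane genes 1 rose and 2 fell (median -0.11). In the cytosolic ribosome 66 of 71 genes rose and 0 fell, with a median of 0.74. The differences between these lists and the mitochondrial ribosomal protein genes were not tested.

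**Figure D4:**
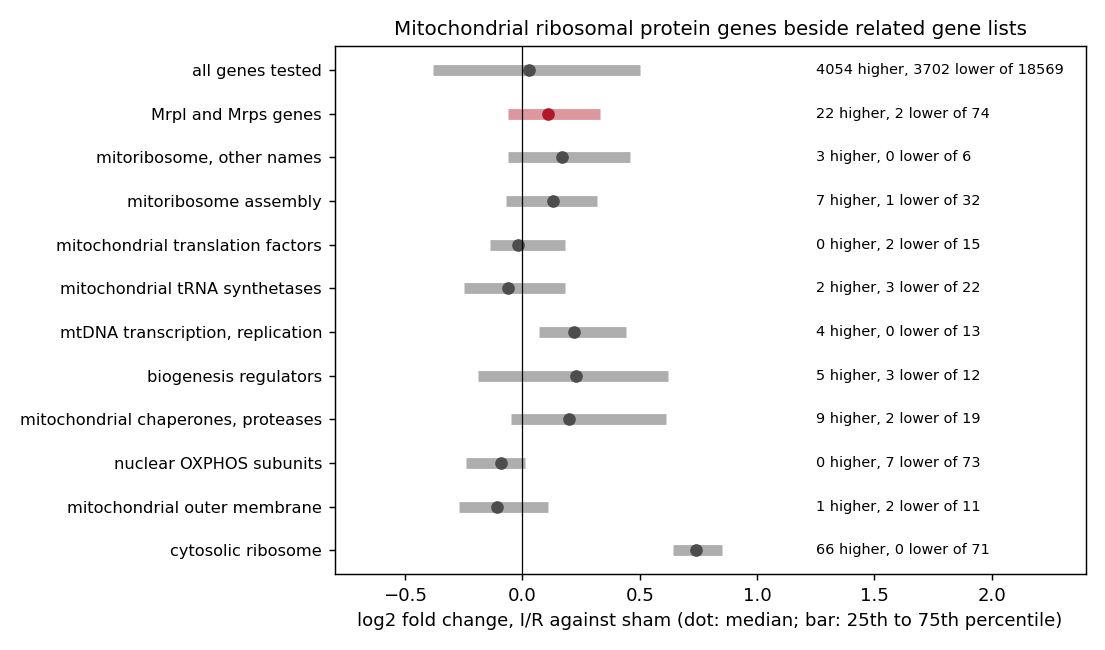
Median (dot) and 25th to 75th percentile (bar) of the log2 fold change (x axis, I/R against sham) for all genes tested, the Mrpl and Mrps genes (red) and 10 related lists, with the number of DEGs in each direction at the right. The Mrpl and Mrps genes have a median of 0.11, near the 0.03 of all genes and far under the 0.74 of the cytosolic ribosome, with nuclear OXPHOS subunits at -0.09.

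Among 12 regulators of mitochondrial biogenesis, 5 rose (41.7%, against 21.8% of all genes) and 3 fell (25%, against 19.9%). Myc, which drives ribosome production and cell growth, had 34.3, 26.4 and 21.6 CPM in I/R and 7.14, 7.72 and 6.10 CPM in sham (log2 fold change 1.97, SE 0.19, adjusted p = 0.000472). Pprc1, a coactivator related to PGC-1, rose by 1.03 (SE 0.16, adjusted p = 0.002216). Gabpa and Gabpb1, the subunits of the ETS factor GABP, rose by 0.60 (SE 0.13, adjusted p = 0.008485) and 0.68 (SE 0.13, adjusted p = 0.005057). Nrf1 rose by 0.42 (SE 0.12, adjusted p = 0.02253). In the other direction, Ppargc1a, which encodes PGC-1alpha, had 26.1, 39.1 and 39.1 CPM in I/R and 54.4, 47.2 and 55.6 CPM in sham (log2 fold change -0.59, SE 0.16, adjusted p = 0.02130). Ppargc1b was at -0.92 (SE 0.15, adjusted p = 0.002865) and Esrra, the nuclear receptor these coactivators work with, at -0.32 (SE 0.10, adjusted p = 0.03005), and both fell. Gabpb2 (0.12), Yy1 (-0.01), Creb1 (-0.15) and Perm1 (0.34) were not called. The call held in all 19 alternatives for Myc, Pprc1, Gabpa, Gabpb1 and Ppargc1b, in 13 for Nrf1 and Ppargc1a and in 9 for Esrra. With library size alone 1 of the 12 was called lower, against 10.9% of all genes.

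The motif counts were also set beside the calls, as a description. The NRF1 core was found in Mrpl9, Mrpl32 and Mrpl39, all of which rose, and in 0 of the 44 windowed genes that were tested and not called. The ETS core was found in 8 of 19 windowed genes that rose, in 14 of 44 that were not called, and in Mrpl57 of the 2 that fell. The YY1 core was found in 8 of the 44 not called and in 0 of the 19 that rose. The E-box was found in Mrpl20 and Mrps18c among those that rose and in 3 not called. These counts were small, and binding was not measured.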

How the data were processed

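Total RNA of hippocampus was sequenced in 6 libraries, 3 sham and 3 I/R, which their titles place in groups. Per the study's methods, the authors aligned reads with TopHat and counted them per gene with HTSeq. The submitters' processing notes also name Bowtie 0.12.2 and mm8, with no role given. Gene identifiers belong to Ensembl's BALB/cJ annotation, although the mice were labelled C57BL/6. The deposited raw counts were used for all tests. The authors also deposited FPKM per library, used here for levels between genes. Columns of their own comparison (group means, log2 fold changes and p-values) were not used. The 41390 lines of the table held 41386 genes once 4 split lines were rejoined. Genes without a name (11253, with 4.241% to 4.740% of a library's counts) stayed in library sizes and tests.

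Counts were fitted with edgeR 4.0.16 in R 4.3.3 (filterByExpr, TMM scaling with factors of 0.908 to 1.15, robust quasi-likelihood F-test), with Benjamini-Hochberg adjustment over 18569 genes. DEGs were genes with adjusted p below 0.05 that differed by over 1.2-fold either way, the fold rule of the study. SE is the log2 fold change divided by the square root of F, and 95% intervals are 2.309 to 2.453 SE either way, from the t distribution with each gene's total degrees of freedom. CPM is on the TMM-scaled library size. P-values measure the spread between pools of animals. The limit of 3 counts covers counting error only. Alternatives changed the scaling, filter, test (DESeq2 1.42.0, limma-voom 3.58.1), unit (log2 FPKM with pseudocounts of 1 and 0.1), thresholds, covariates and libraries. Code was tested on simulated counts. Shared sequence is the share of 50-base stretches of GENCODE M21 transcripts found in another gene on either strand.

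The members and the related lists were chosen with earlier results of these data known. Genes were named by rule: the 8 largest rises and falls called (2 fell), the 4 highest and 2 lowest sham FPKM, the 3 fold changes nearest 0, genes that failed the filter, Mrps18a, Mrps30 and Mrps36, and up to 3 called genes per related list, with every regulator and every mitoribosome protein of another name. Other genes that rose, and the overlapping neighbours, were named after their values were seen.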

Additional observations from a re-analysis of the deposited data

How the results depend on the processing

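The median log2 fold change of the 74 genes, 0.11 as reported, was above 0 in all 19 alternative fits, and no called gene changed direction in any of them. Counts of DEGs moved. With library size alone 40 genes rose and 0 fell (median 0.36), on log2(FPKM + 1) 39 and 0 (median 0.33), and on log2(FPKM + 0.1) 41 and 0 (median 0.36). These scales leave in the general shift between groups that TMM removes. The length correction left 19 rises and 7 falls. At a fold over 2, 1 gene rose and 0 fell, and 2760 genes were DEGs of the 7756 over all genes. Leaving out 1 library gave 10 to 24 rises and 0 to 4 falls. Without I/R replicate 3 and sham replicate 1, an alternative chosen after seeing the data, 6 rose and 0 fell. The study names no pairing of the samples by replicate number. Deviations from the group mean correlated at -0.139, 0.043 and -0.236 between same-numbered libraries. At 3 libraries a group such correlations cannot settle if the samples were paired. With the replicate block 12 genes rose (16.2%, against 17.6% of all genes) and 1 fell, and sham replicate 1 correlated best with I/R replicate 3 (0.33). For the 20 tested genes of the set named by rule, 341 of 380 alternative values kept the call or its absence. A further 32 lost the call and 7 gained it. Genes that were not called could change direction, as Mrps21 did (-0.15 as reported and 0.10 with library size alone). The other scalings, filters, tests and the choroid plexus covariate gave 19 to 24 rises and 2 or 3 falls. The lowest count of a tested member in a library was 157. What other depths would give was not tested.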
